A study of Mus musculus with 20 samples.

Results

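This comparison asks how the liver transcriptome of obese mice on a fishmeal diet differed from that of obese mice on a beef diet. It uses 10 of the 20 liver RNA sequencing libraries of the study, 1 library per mouse, chosen by the group names that head the columns of the count table. The fishmeal group is mice 12, 13, 14, 16 and 20, and the beef group is mice 31, 32, 35, 39 and 40. The sample label of mouse 31 says salmon filet while its column says beef. The main results are therefore given with it and without it, except for a fit of all 20 libraries, where it counts as beef. Leaving it out gives the groups of this comparison as the labels have them (5 fishmeal mice against 4 beef mice). The other 10 libraries come from 5 mice fed chow and 5 mice fed salmon filet. They show where the levels lie, and they enter the scaling of the levels and the fit of all 20 libraries.

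All mice were female C57BL/6J, an inbred strain that becomes obese on fat-rich food. Both groups received a high-fat diet (HFD) from 8 weeks of age, and then an alternative HFD for 10 weeks until 28 weeks of age. In both alternative diets 50% of the protein came from the named source, which was meal made of farmed salmon by-products such as heads, viscera and spines for the fishmeal group and freeze-dried entrecote for the beef group, while casein gave the rest. Lard supplied most of the fat in both. The diets had the same energy, protein, carbohydrate and fat. They differed in more than the protein source, since the fishmeal diet held more cholesterol, more soybean oil, more polyunsaturated and less saturated fat, and the meal itself was richer in copper, zinc, glycine and proline. These differences go with the protein source in every mouse and cannot be told apart here. Cages and the hour of tissue collection were not given for each mouse in the sources used here.

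Levels are given as CPM, the count of a gene scaled to the library's total. Total counts per library ranged from 42717772 to 70266136 with fishmeal and from 42526234 to 56140621 with beef. A pair of libraries stood apart from the others. In mouse 35 (beef), rRNA genes took 12.7% of the counts against 2.93% to 4.88% in the other 9 libraries, and protein coding genes took 84.3% against 93.2% to 94.8%. In mouse 12 (fishmeal), the nuclear RNA Malat1 took 0.0603% of the counts against 0.401% to 0.626% in the others. All 20 pairs of libraries within the groups differed by more than counting noise (chi-square per gene of at least 31.9), so within a group none was the same library deposited again. Pairs across groups were not compared. That each library is a separate mouse rests on the labels. Hepatocyte markers such as Alb and Apoa1 were abundant in every library. The 10 genes of this list summed to 88316 to 116490 CPM with fishmeal and 95080 to 112480 CPM with beef.

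Hepatocytes make cholesterol from acetyl-CoA, first through the mevalonate arm of the pathway to farnesyl diphosphate, and then through squalene and a series of sterols to cholesterol. Transcription of these enzymes is driven by SREBP-2, a membrane-bound factor that is released from the endoplasmic reticulum when sterols are scarce and held back by Insig proteins when they are plentiful. SREBP-2 acts together with NF-Y, a factor that binds CCAAT boxes.

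Enzymes of cholesterol synthesis were the genes that differed most clearly between the groups. Of 16304 genes tested with edgeR, 4 passed an adjusted p of 0.05. Lss and Fdps, which encode enzymes of this pathway, were among the genes that fell with fishmeal, and Cyp2a22, which encodes a cytochrome P450, rose. The 3 genes that fell are 0.0184% of all genes tested and the 1 gene that rose is 0.00613%. DESeq2 called 35 of 22682 genes, 28 of them lower (0.123%) and 7 higher (0.0309%), and all 4 genes called by edgeR were among them. At an unadjusted p under 0.05, edgeR put 262 genes (1.61%) lower and 160 genes (0.981%) higher. For 63 genes (0.386%) every fishmeal mouse lay below every beef mouse, and for 34 genes (0.209%) every fishmeal mouse lay above. The median log2 fold change over all genes tested was -0.0011. In bulk liver, a lower value can come from fewer cells of a type or from less RNA per cell, and these cannot be told apart.

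**Figure D1:**
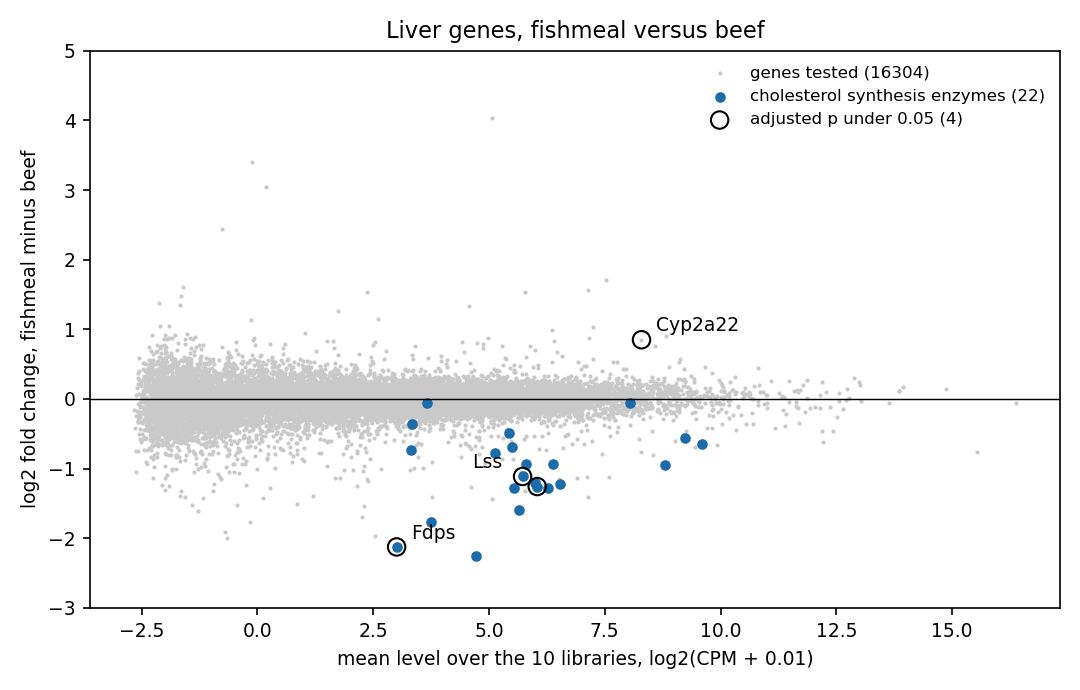
Each point is a gene, with its mean level over the 10 libraries on the x axis (log2 of CPM plus 0.01) and its log2 fold change (fishmeal minus beef) on the y axis. Blue points are the 22 cholesterol synthesis enzymes, all below 0, and circles mark the 4 genes past an adjusted p of 0.05.

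All 22 enzymes of the 2 arms were measured in every library and all had a negative log2 fold change (21 of 22 when mouse 14 was left out), from -2.26 (Sqle) to -0.057 (Ebp), with a median of -0.94. Against the 1.61% of all genes that were lower at an unadjusted p under 0.05, 19 of the 22 were lower at that threshold, and 0 were higher. At an adjusted p under 0.05, 3 were called lower by edgeR and 11 by DESeq2, against 0.0184% and 0.123% of all genes. For 13 of the 22, every fishmeal mouse lay below every beef mouse, where 0.386% of all genes did so. Without mouse 31 the median was -0.82 and 20 enzymes were lower at an unadjusted p under 0.05. Without mouse 35 these were -0.96 and 18. DESeq2 called the same 11 enzymes without mouse 31 and again without mouse 35. The enzymes were put together with earlier results of these data known, so their number is a description and was not tested as a list.

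Promoter windows are shown because SREBP-2 and NF-Y are known to act there. RefSeq windows (GRCm38.p6) were at hand for 17 of the 22 enzymes. Fdps, Sqle and Fdft1 were among those without a window. The 250 bases before the start were searched on both strands for the NF-Y box CCAAT and for TCACNCCAC, the core of the sterol regulatory element bound by SREBP-2. A CCAAT box was found for 16 of the 17 enzymes (94.1%), and for 33.8% of 32851 windows of all genes (37.5% of genes). The sterol element core was found for 1 enzyme, Hmgcs1, and in 1.05% of all windows. Other spellings of this element, and bases farther from the start, were not searched. Below are the window with both motifs (Hmgcs1), 3 enzymes with lower values described below (Mvd, Lss, Nsdhl), an enzyme with almost the same level in both groups (Ggps1) and the gene that rose (Cyp2a22). Capitals mark the motif letters as read on the strand of the gene, where ATTGG is CCAAT on the other strand. The Lss window ends where its GENCODE gene starts.
Hmgcs1, chr13:119690101-119690350, + strand: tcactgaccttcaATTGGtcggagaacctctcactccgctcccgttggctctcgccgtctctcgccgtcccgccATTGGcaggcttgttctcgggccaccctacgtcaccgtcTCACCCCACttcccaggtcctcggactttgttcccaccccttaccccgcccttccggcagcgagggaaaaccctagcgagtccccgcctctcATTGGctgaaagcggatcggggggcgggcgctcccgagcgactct
Mvd, chr8:122443423-122443672, - strand: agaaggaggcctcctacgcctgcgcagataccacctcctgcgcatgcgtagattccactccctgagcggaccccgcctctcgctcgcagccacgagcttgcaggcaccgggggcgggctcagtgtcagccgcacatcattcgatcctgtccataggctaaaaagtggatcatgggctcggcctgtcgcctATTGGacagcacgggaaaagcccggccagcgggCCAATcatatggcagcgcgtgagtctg
Lss, chr10:76531355-76531587, + strand: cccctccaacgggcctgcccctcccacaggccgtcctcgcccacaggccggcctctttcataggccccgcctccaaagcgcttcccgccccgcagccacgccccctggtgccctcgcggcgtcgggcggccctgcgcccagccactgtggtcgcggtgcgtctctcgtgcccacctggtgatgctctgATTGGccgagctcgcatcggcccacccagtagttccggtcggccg
Nsdhl, chrX:72918271-72918520, + strand: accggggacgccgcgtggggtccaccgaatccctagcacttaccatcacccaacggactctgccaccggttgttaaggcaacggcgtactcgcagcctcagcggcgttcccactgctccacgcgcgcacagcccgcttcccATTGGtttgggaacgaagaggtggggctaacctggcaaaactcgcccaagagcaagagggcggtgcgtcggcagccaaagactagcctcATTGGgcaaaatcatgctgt
Ggps1, chr13:14063489-14063738, - strand: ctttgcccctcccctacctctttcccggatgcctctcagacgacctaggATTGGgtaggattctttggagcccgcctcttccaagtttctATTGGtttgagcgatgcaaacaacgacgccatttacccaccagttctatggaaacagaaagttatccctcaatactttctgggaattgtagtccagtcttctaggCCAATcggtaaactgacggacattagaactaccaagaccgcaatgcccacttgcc
Cyp2a22, chr7:26939387-26939636, - strand: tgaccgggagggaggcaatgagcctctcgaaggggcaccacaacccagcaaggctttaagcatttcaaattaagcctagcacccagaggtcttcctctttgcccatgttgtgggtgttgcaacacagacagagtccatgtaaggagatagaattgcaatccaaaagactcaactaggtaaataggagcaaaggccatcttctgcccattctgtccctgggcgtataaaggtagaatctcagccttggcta
Hmgcs1 has its sterol element core 137 bases before the start, between CCAAT boxes at 176 and 45. Mvd has boxes at 60 and 27 bases before the start, and Nsdhl at 109 and 20. The box of Lss lies 62 bases before its RefSeq start, which is past the end of the stretch printed. Ggps1, the enzyme of this arm with the smallest difference, has 3 boxes, at 201, 160 and 55, and Cyp2a22 has none. No match of one motif overlapped a match of the other. A match is a description of the letters and neither a binding site nor a cause.

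Fdps encodes farnesyl diphosphate synthase, the step at which the sterol branch and the branch to prenyl groups part (ENSMUSG00000059743; chr3:89093588-89101959, minus strand on GRCm38, the build of all positions here). Its level was 3.14, 3.23, 2.40, 3.72 and 2.40 CPM in fishmeal mice 12, 13, 14, 16 and 20, and 16.1, 17.7, 17.6, 7.00 and 7.04 CPM in beef mice 31, 32, 35, 39 and 40. The same order of mice is kept below. Beef mice 39 and 40 stood lower than the other 3 beef mice, and still above every fishmeal mouse. Fdps was 4.36-fold lower (log2 fold change -2.13 ± 0.29 (SE), adjusted p = 0.0375 by edgeR and 1.21e-09 by DESeq2). This call was made without mouse 39 or 40, and was lost when any of the other 8 mice was left out (adjusted p 0.00944 to 0.144 over the 10 fits, 0.127 without mouse 31 and 0.137 without mouse 35). With both of those mice left out, edgeR called 0 genes, 297 genes had an unadjusted p under 0.05, and Fdps had a log2 fold change of -1.82. Fdps shares 96.1% to 98.9% of its sequence over long stretches with 4 processed copies (Gm3571, Gm5873, Gm7979 and Gm8163), and the annotation has Gm43738 over it on the same strand, so reads may be split among them. The counts of Fdps and the 4 copies summed to a mean of 6.72 CPM with fishmeal and 21.3 CPM with beef, which is 3.17 times as much.

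The other genes of the mevalonate arm lay on the same side. Idi1 (isopentenyl diphosphate isomerase) stood at 28.0, 34.2, 17.6, 27.0 and 17.2 CPM with fishmeal and 122, 84.2, 80.7, 46.0 and 42.5 CPM with beef, a log2 fold change of -1.60 ± 0.29 (SE), with an adjusted p of 0.166 by edgeR and 9.30e-05 by DESeq2. Its groups did not overlap, and its processed copy Gm13502, identical over 684 bases, had a log2 fold change of -1.76. Mvd (mevalonate diphosphate decarboxylase) stood at 11.4, 6.82, 2.58, 5.29 and 4.41 CPM with fishmeal and 19.7, 15.4, 43.2, 9.62 and 16.4 CPM with beef. Mouse 35 held the highest Mvd value and mouse 39 lay within the fishmeal range. The log2 fold change was -1.77 with all mice and -1.315 without mouse 35 (0.502 and 1 as edgeR adjusted p). Hmgcs1 (HMG-CoA synthase), the most abundant of this arm per length (168 TPM with fishmeal and 319 TPM with beef), had a log2 fold change of -0.95 ± 0.24 (SE), and -0.73 without mouse 31. The kinases Pmvk and Mvk had log2 fold changes of -0.77 and -0.74 (-0.46 for Mvk without mouse 35), and the thiolase Acat2 -0.49. Over 1477 bases the transcripts of Acat2 and Acat3 share 97.7% of their letters, so that reads of this pair may be split. None of these 6 passed the edgeR threshold, and of them DESeq2 called Idi1. Ggps1 was the member of this arm nearest to 0. It makes geranylgeranyl diphosphate for protein prenylation rather than sterols, and its log2 fold change was -0.060 (95% interval -0.29 to 0.17), with means of 12.5 ± 1.18 CPM (SD, n = 5) with fishmeal and 13.0 ± 1.06 CPM (SD, n = 5) with beef. Ggps1 has a near copy, Gm5630, 97.2% identical over 903 bases.

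In the arm from squalene to cholesterol, Lss encodes lanosterol synthase, which closes the sterol rings (ENSMUSG00000033105; chr10:76531588-76557138, plus strand). It stood at 40.0, 34.0, 27.5, 32.7 and 33.0 CPM with fishmeal and 73.6, 80.3, 86.8, 53.0 and 68.0 CPM with beef, with no overlap. Lss was 2.16-fold lower (log2 fold change -1.11 ± 0.15 (SE), adjusted p = 0.0337 by edgeR and 3.26e-08 by DESeq2). The call was made without mouse 12 or 39 and was lost when any of the other 8 mice was left out (adjusted p 0.00843 to 0.143 over the 10 fits, 0.127 without mouse 31 and 0.095 without mouse 35), with log2 fold changes of -1.21 to -1.03. An antisense gene, 4930483K19Rik, overlaps it, and whether counting used strand is not given in the sources used here.

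Sqle (squalene epoxidase, chr15:59315077-59331192, plus strand) had the lowest log2 fold change among the genes tested with a mean of at least 5 CPM, -2.26 ± 0.36 (SE). It stood at 10.8, 16.3, 4.36, 8.68 and 5.08 CPM with fishmeal and 61.3, 48.9, 52.0, 26.8 and 27.5 CPM with beef. Every beef mouse was above every fishmeal mouse, and the spread was wide in both groups, so Sqle was 4.78-fold lower at an edgeR adjusted p of 0.0834, just outside the threshold. DESeq2 called it at 1.22e-07. Hsd17b7, Nsdhl and Dhcr7, of the later sterol steps, were also among the 5 uncalled genes with the lowest edgeR adjusted p (0.0695, 0.105 and 0.144), with log2 fold changes of -0.93, -1.28 and -1.20 and no overlap between the groups. The remaining one, 1810008I18Rik, is a long non-coding RNA that stood at 58.8, 53.3, 63.0, 48.3 and 60.1 CPM with fishmeal and 90.0, 183, 143, 85.2 and 126 CPM with beef (log2 fold change -1.15, adjusted p = 0.133).

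Cyp51, Msmo1 and Fdft1, which demethylate sterols and make squalene, had log2 fold changes of -1.27, -1.22 and -0.93. DESeq2 called all 3 lower and edgeR did not (adjusted p of 0.173, 0.152 and 0.192). Fdft1 overlaps Ctsb and Cyp51 overlaps Akap9 on the other strand. Sc5d, Tm7sf2 and Lbr had log2 fold changes of -0.64, -0.70 and -0.36 and were called by neither tool. Mouse 35 was the highest of the beef mice in Tm7sf2, whose log2 fold change was -0.47 without it, and the annotation has Vps51 over Tm7sf2 on the same strand. Ebp, like Ggps1, did not reach an unadjusted p under 0.05. It had means of 258 ± 69.3 CPM with fishmeal and 269 ± 24.7 CPM with beef (SD, n = 5 each), and its log2 fold change was -0.057 (95% interval -0.41 to 0.30).

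**Figure D2:**
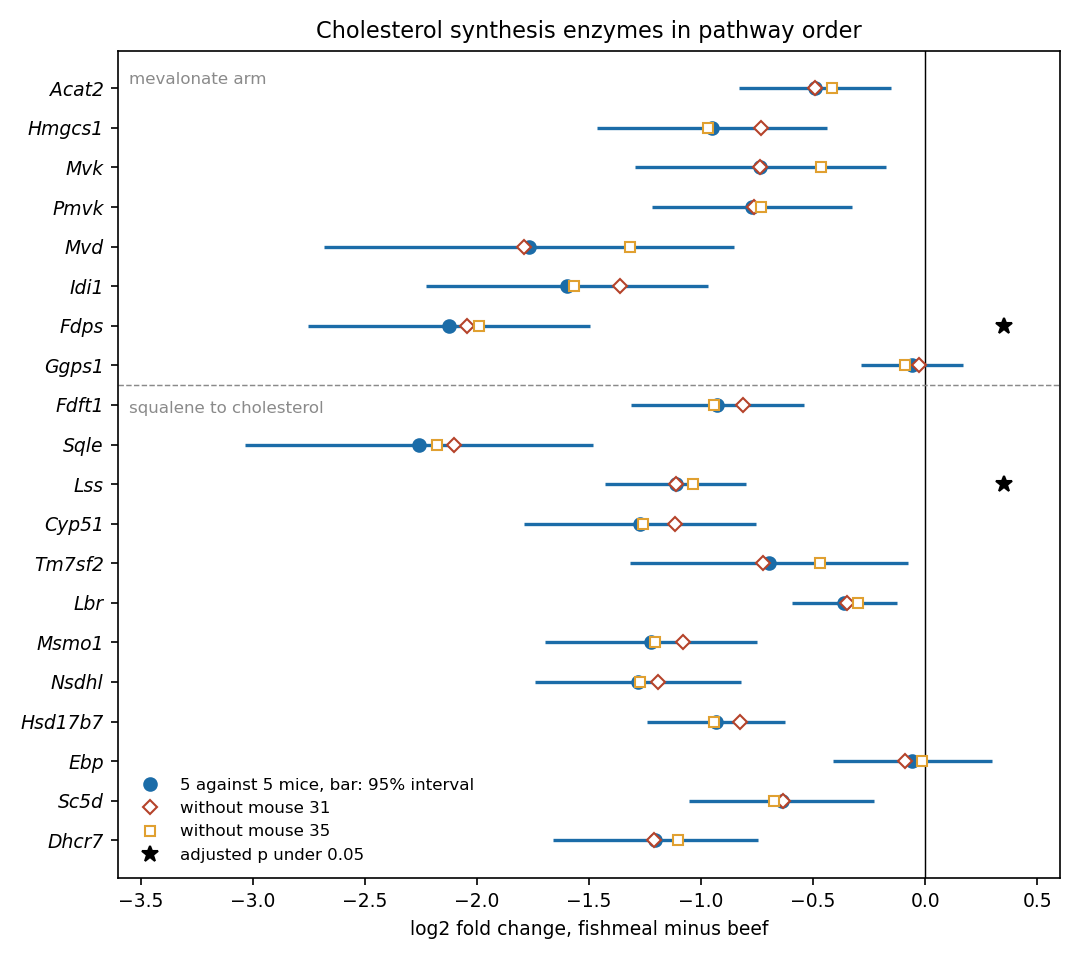
Log2 fold change (fishmeal minus beef, x axis) of 20 of the 22 enzymes in pathway order. Filled circles with 95% intervals use 5 against 5 mice, open symbols leave out mouse 31 or mouse 35, and stars mark an edgeR adjusted p under 0.05, for Fdps and Lss; Sqle, Fdps and Mvd lie farthest from 0, and Ggps1 and Ebp lie near it.

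The mice of a group also differed among themselves. Averaged over the 22 enzymes, the log2 level relative to the beef mean was -0.67 in mouse 12, -0.84 in mouse 13, -1.39 in mouse 14, -0.97 in mouse 16 and -1.14 in mouse 20. The beef mice stood at 0.23 (mouse 31), 0.11 (mouse 32), 0.27 (mouse 35), -0.38 (mouse 39) and -0.24 (mouse 40). Every fishmeal mouse thus lay below every beef mouse, and mouse 31 lay within the range of the other beef mice and also within that of the salmon filet mice. Mouse 14 had the lowest fishmeal value for 17 of the 22 enzymes and mouse 12 the highest for 12, and mouse 39 had the lowest beef value for 14. The coefficient of variation within a group had a median over the enzymes of 20.8% with fishmeal and 25.9% with beef, and was highest for Mvd in both (54.5% and 62.4%).

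**Figure D3:**
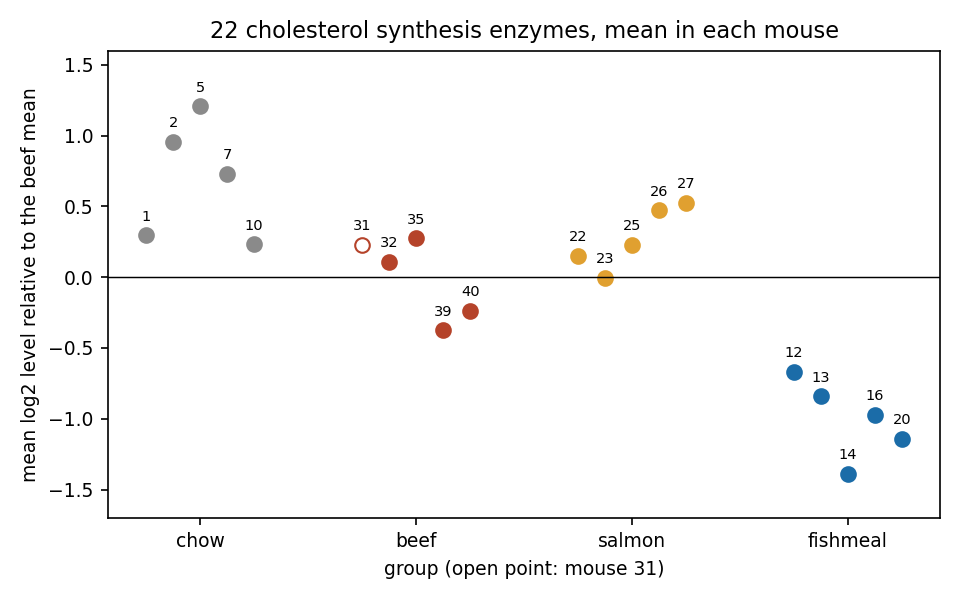
Mean over the 22 enzymes of the log2 level relative to the mean of the 5 beef mice (y axis), 1 point per mouse with its number, by group. Fishmeal mice lie between -1.39 and -0.67 and beef mice between -0.38 and 0.27; the open point is mouse 31.

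The salmon filet mice lay between -0.0040 and 0.53 on this scale, and the chow-fed mice between 0.23 and 1.21. In a fit of all 4 groups, the median log2 fold change over the 22 enzymes was -0.94 for fishmeal minus beef, 0.24 for salmon filet minus beef, -1.31 for fishmeal minus salmon filet and -0.72 for beef minus chow. The median over all 17120 genes tested in that fit lay between -0.0039 and 0.0080 in these contrasts. In the order given, edgeR called 3, 0, 13 and 10 of the 22 enzymes lower, against 0.0175%, 0%, 0.169% and 2.39% of all genes. These contrasts share libraries with each other and so are not separate evidence. Mouse 31 counted as beef in this fit, which was not run without it or with it as salmon filet.

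**Figure D4:**
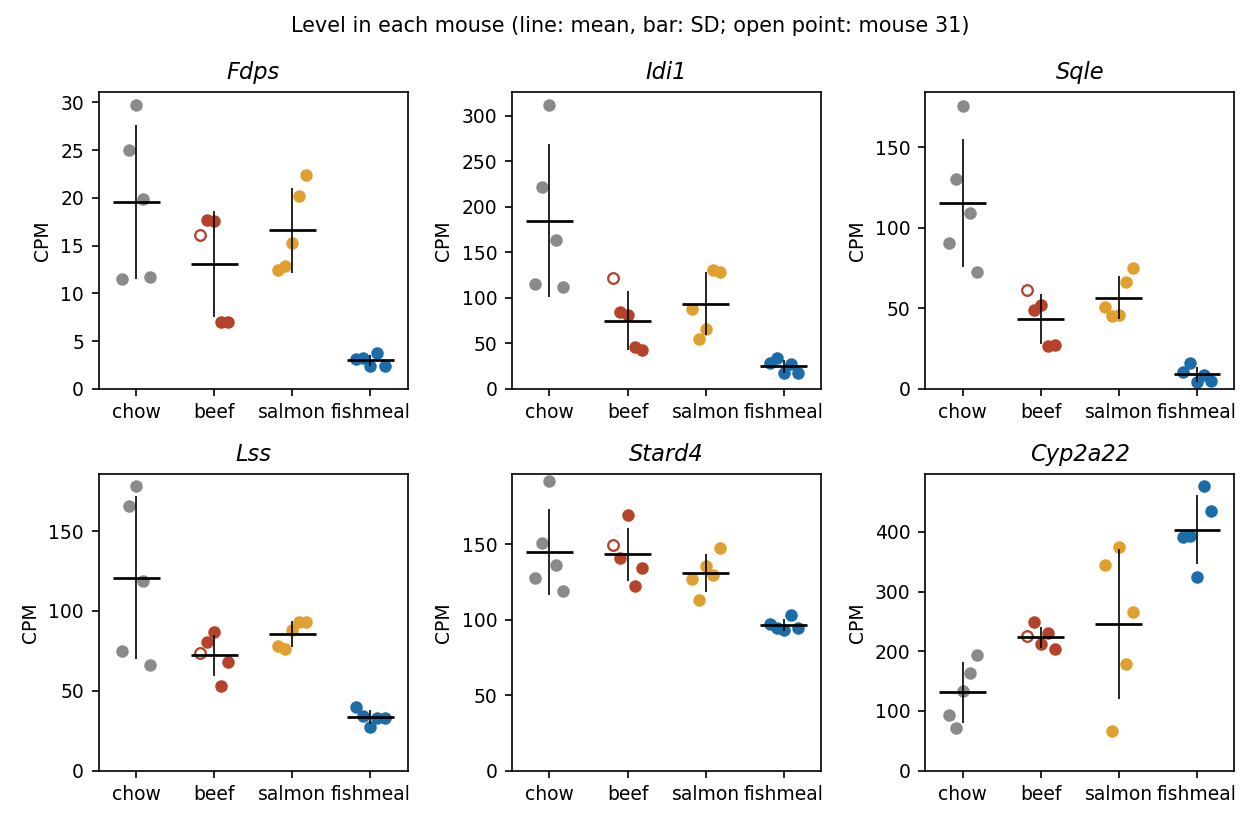
Level in CPM (y axis) of 6 genes in each of the 20 mice, by group on the x axis, with the group mean and SD. Fishmeal values of Fdps, Idi1, Sqle, Lss and Stard4 lie below all beef and salmon values, and those of Cyp2a22 lie above all beef values but not above all salmon values; the open point is mouse 31.

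Of the 11 genes that control SREBP-2, none was called by either tool, and their median log2 fold change was -0.051. Srebf2, which encodes SREBP-2 itself, stood at 52.3, 57.9, 38.7, 36.6 and 42.6 CPM with fishmeal and 70.3, 43.3, 95.9, 59.9 and 59.6 CPM with beef, a log2 fold change of -0.53 ± 0.19 (SE), and -0.35 without mouse 35. Insig1, which retains SREBP in the endoplasmic reticulum and is itself a target, stood at 289, 161, 158, 340.2 and 204 CPM with fishmeal and 431, 539, 385, 252 and 342 CPM with beef (log2 fold change -0.76). Both genes overlapped between the groups and reached an unadjusted p under 0.05 (adjusted p = 0.999 for Srebf2 and 0.999 for Insig1 by edgeR), and Insig1 was the lowest of the list. Srebf1, which encodes the factor of fatty acid synthesis, had a log2 fold change of 0.094 (95% interval -0.40 to 0.59), and the highest was Rnf139 (0.21).

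Of 17 genes of sterol uptake and trafficking that passed the filter (18 in the list), DESeq2 called 2 lower, against 0.123% of all genes. By edgeR none was called, and the median was -0.11. At an unadjusted p under 0.05, edgeR put 3 lower and 1 higher, against 1.61% and 0.981% of all genes. For 3 genes every fishmeal mouse lay below every beef mouse, where 0.386% of all genes did so. Stard4, which carries sterols between membranes and was among the genes called by DESeq2, stood at 97.4, 94.8, 93.6, 103 and 94.6 CPM with fishmeal and 149.6, 141, 169.5, 122 and 135 CPM with beef. The spread was narrow, and its log2 fold change was -0.57 ± 0.11 (SE), with no overlap and an adjusted p of 0.173 by edgeR and 6.39e-04 by DESeq2. Vldlr, a receptor for triglyceride-rich lipoproteins, was the highest of the list (0.51, 22.0 to 37.1 CPM with fishmeal and 14.3 to 30.1 CPM with beef).

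The list for sterol efflux and LXR, a nuclear receptor for oxidised sterols, held 10 genes, of which 0 had an unadjusted p under 0.05. Besides efflux genes and LXR targets it holds Nr1h4, Nr0b2 and the genes of LXR itself. The median over the list was 0.056. The log2 fold changes were -0.017 for Abca1 (95% interval -0.27 to 0.24), 0.066 for Abcg1 (-0.36 to 0.49), -0.030 for Nr1h3, which encodes LXR-alpha (-0.36 to 0.30), and -0.087 for Nr1h2, which encodes LXR-beta (-0.53 to 0.36). The extremes, here and below among members with a mean of at least 1 CPM, were Abcg5 (0.24) and Lpcat3 (-0.10). In bile acid synthesis 0 of 12 genes were called and the median was -0.013. Cyp7a1, the rate-limiting enzyme, ranged from 54.3 to 165 CPM with fishmeal and from 88.1 to 165 CPM with beef (log2 fold change -0.30, 95% interval -0.90 to 0.30). Cyp8b1, which directs synthesis to cholic acid, had the lowest value of the list (-1.118), with 186, 55.0, 91.2, 16.3 and 89.5 CPM with fishmeal and 188, 315, 144, 106 and 196 CPM with beef. Mouse 16 was far below the others in Cyp8b1, and the groups overlapped. Cyp7b1 had the highest (0.30).

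Genes of fatty acid synthesis also lay on the lower side. All 16 de novo lipogenesis genes had a negative log2 fold change, with a median of -0.50 (-0.58 without mouse 31), 7 were lower at an unadjusted p under 0.05 (5 without mouse 35) where 1.61% of all genes were, and edgeR called none of them. DESeq2 called Acss2 and Acacb. These and the other genes named below that are no enzyme of cholesterol synthesis and no extreme of their list were chosen after their values were seen. Acss2, which makes acetyl-CoA from acetate and is also a target of SREBP-2, stood at 108, 61.1, 56.1, 84.4 and 64.9 CPM with fishmeal and 174, 241, 147, 118 and 141 CPM with beef. Its groups did not overlap (log2 fold change -1.14 ± 0.22 (SE), adjusted p = 0.199 by edgeR and 0.00188 by DESeq2). Acacb, the acetyl-CoA carboxylase that restrains fatty acid entry into mitochondria, stood at 85.6, 51.5, 37.3, 52.2 and 65.2 CPM with fishmeal and 87.2, 125, 236, 88.0 and 143 CPM with beef. Mouse 35 was the highest in Acacb and mouse 12, the highest of the fishmeal mice, came close to beef mice 31 and 39 (log2 fold change -1.22, -0.92 without mouse 35, DESeq2 adjusted p = 0.0201 with all mice and 0.16 without mouse 35). The lowest of the list was Pnpla3 (-1.25), a lipid droplet protein at 1.325 to 4.59 CPM with fishmeal and 3.82 to 10.2 CPM with beef. Fasn (-0.69) and Acly (-0.80) overlapped between the groups. Mlxipl, which encodes the sugar-responsive factor ChREBP, had a log2 fold change of -0.11 (95% interval -0.57 to 0.36), with mouse 12 far below the rest.

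Among 14 desaturases and elongases, which lengthen and unsaturate fatty acids, 5 were lower at an unadjusted p under 0.05 (1.61% of all genes) and 0 higher (0.981% of all genes), with a median of -0.18. DESeq2 called Elovl2, an elongase of long polyunsaturated fatty acids, which stood at 521, 570.3, 506, 449 and 517 CPM with fishmeal and 685, 739, 747, 615 and 729 CPM with beef (log2 fold change -0.46 ± 0.11 (SE), adjusted p = 0.461 by edgeR, 0.00953 by DESeq2 and 0.0658 by DESeq2 without mouse 31). Without mouse 35, DESeq2 did not call Elovl2 either. The groups did not overlap, with a small gap. The extremes were Fads2 (-0.66), the desaturase that starts polyunsaturated synthesis, and Hacd1 (0.30). Targets of PPAR-alpha, a nuclear receptor for fatty acids, and genes of fatty acid oxidation numbered 26. Of these, 19 had a positive log2 fold change, the median was 0.16, 3 were higher at an unadjusted p under 0.05, against 0.981% of all genes, and none was called. The extremes were Acot1 (0.62, and 0.16 without mouse 13, its highest), and Ppara itself (-0.26).

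Cyp2a22 was the gene that rose by edgeR (ENSMUSG00000091867; chr7:26931631-26939384, minus strand). It encodes a liver cytochrome P450 of the Cyp2a family. Its level was 391, 393, 324, 477 and 435 CPM with fishmeal and 226, 249, 212, 229.8 and 203 CPM with beef. The lowest fishmeal mouse was above the highest beef mouse, and Cyp2a22 was 1.80-fold higher (log2 fold change 0.85 ± 0.12 (SE), adjusted p = 0.0469 by edgeR and 6.91e-08 by DESeq2). The edgeR call was made without mouse 14 and was lost when any of the other 9 mice was left out (adjusted p 0.0423 to 0.177 over the 10 fits, 0.152 without mouse 31). The beef mice lay close together, whereas salmon filet mice ranged from 67.0 to 374 CPM and chow-fed mice from 71.0 to 194 CPM. In the fit of all 4 groups, whose spread includes those mice, the adjusted p was 0.998. Cyp2a22 is 95.4% identical to Cyp2a12 over 3462 bases, so reads may be split, and Cyp2a12 had a log2 fold change of 0.33, with 654 to 864 CPM with fishmeal and 482 to 672 CPM with beef. Of the 10 Cyp2a and Cyp2d genes that passed the filter (12 in the list), 9 had a positive value, and the lowest was Cyp2d40 (-0.18).

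Targets of CAR and PXR, nuclear receptors that answer to drugs and bile acids, lay mostly above 0. Their list also holds Nr1i3 and Nr1i2, which encode the receptors themselves. The log2 fold change was positive for 21 of 23, with a median of 0.28, 7 were higher at an unadjusted p under 0.05, against 0.981% of all genes, and 0 were called by either tool. Summed over the list, the fishmeal mice held 9612 to 12412 CPM and the beef mice 8143 to 9822 CPM, and the ranges overlapped. The extremes were Gstm3 (0.80, and 0.48 without mouse 16), a glutathione transferase at 18.4 to 61.1 CPM with fishmeal and 14.7 to 23.6 CPM with beef, and Por (-0.13).

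Lists chosen for nutrients that differed between the diets showed no called gene. Copper and zinc genes had a median of 0.035 over 16 (Mt2 -0.59 to Commd1 0.30). A list of selenoproteins together with Selenbp2, a selenium-binding protein, had a median of 0.086 over 15 (Selenbp2 -0.48 to Gpx1 0.43). Iron genes had a median of 0.13 over 14 (Tfr2 -0.26 to Id1 0.33), and genes that break down glycine, proline and histidine 0.024 over 18 (Ftcd -0.13 to Agxt 0.22). None in these 4 lists had an unadjusted p under 0.05. The metallothionein Mt2, which rises with zinc, spread from 2.78 to 10.8 CPM with fishmeal and from 0.960 to 23.7 CPM with beef, and its log2 fold change was -0.59 with all mice and 0.11 without mouse 40. In propionate and cobalamin metabolism the median was 0.037 over 14, with Mmab, a cobalamin enzyme, at -0.37 and Mcee at 0.19.

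Lists that follow the state of the animal likewise held no called gene. The circadian clock had a median of -0.029 over 17 genes, and -0.22 without mouse 31, with wide spread (Ciart -0.89, 95% interval -2.93 to 1.15, or 0.57 without mouse 40, and Npas2 0.36, 95% interval -1.33 to 2.06). Immediate early and heat shock genes had a median of -0.014 over 14 of 15 (from Hspa1b -0.86, or -0.13 without mouse 35, to Hsp90aa1 0.29 among members with a mean of at least 1 CPM), and acute phase genes -0.10 over 14 (Lcn2 -0.37 to Saa3 0.14). Genes of toxicity and inflammation measured by RT-qPCR elsewhere in the project were Cyp1a1, Cyp1b1, Il1b and Col1a1. In these libraries they overlapped between the groups, with log2 fold changes of 0.57 for Cyp1a1 (95% interval -0.22 to 1.36), -0.12 for Cyp1b1 (-0.83 to 0.59), 0.22 for Il1b (-0.19 to 0.64) and 0.013 for Col1a1 (-0.87 to 0.90). Fabp5, a fatty acid carrier, had a log2 fold change of -0.66, and Chrna4, a nicotinic receptor subunit, one of -1.96 at 0.563 to 6.65 CPM with fishmeal and 4.85 to 20.1 CPM with beef, neither of them called.

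**Figure D5:**
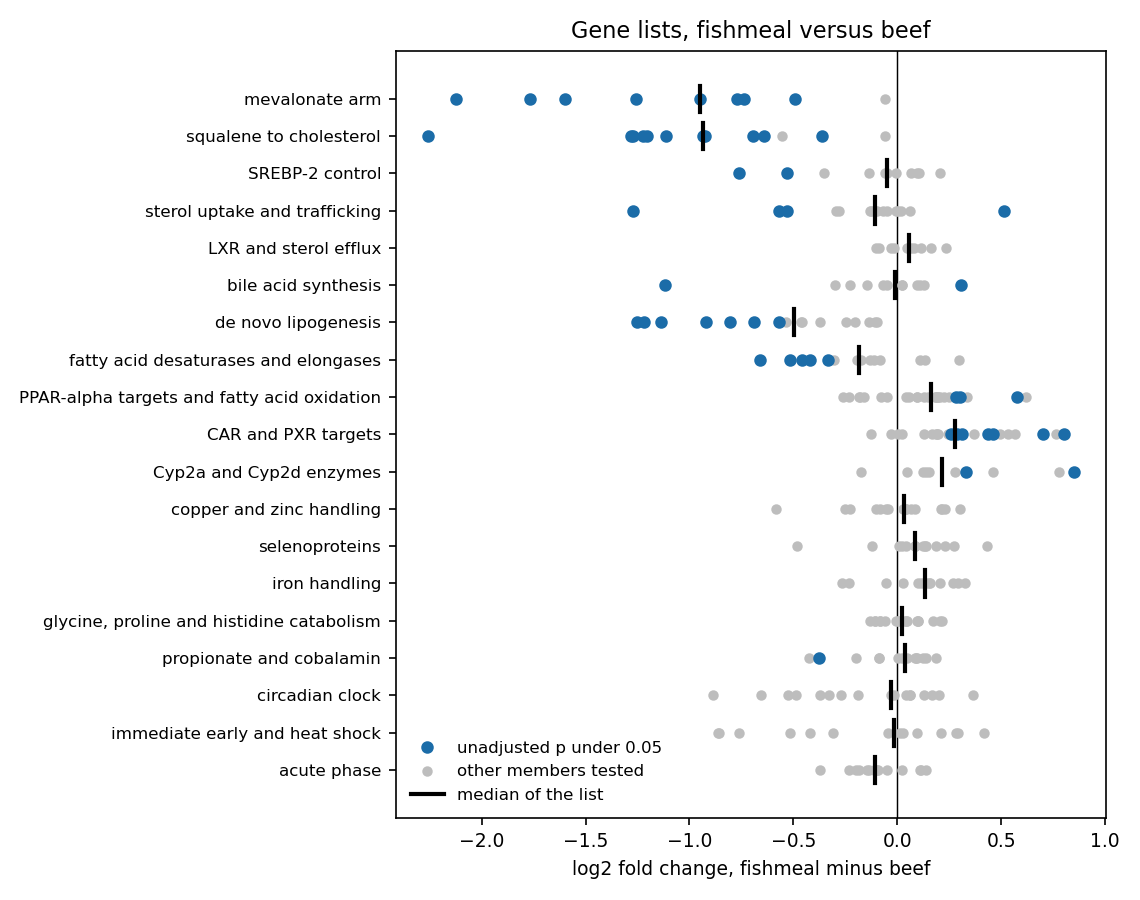
Log2 fold change (fishmeal minus beef, x axis) of the members tested in each of the 19 gene lists, with the list median as a black bar. Members with an unadjusted p under 0.05 are blue; the medians of the mevalonate and squalene arms lie at -0.95 and -0.93, that of de novo lipogenesis at -0.50, and the others between -0.18 and 0.28.

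Beyond the 17 list members, DESeq2 called 18 genes, of which 10 are protein coding by the biotypes in the count table. Igfbp1, a liver protein that binds insulin-like growth factors, stood at 13.1, 19.4, 21.4, 11.3 and 25.6 CPM with fishmeal and 77.3, 54.2, 48.5, 33.8 and 32.1 CPM with beef. The groups did not overlap (log2 fold change -1.44, DESeq2 adjusted p = 3.30e-04, and 0.00453 without mouse 31). Hpgd, which breaks down prostaglandins, stood at 158, 149.7, 151, 167 and 166 CPM with fishmeal and 111, 118, 117, 116 and 112 CPM with beef. Both groups were tight, and Hpgd was higher by a log2 fold change of 0.47 (DESeq2 adjusted p = 3.33e-06, edgeR 0.173). Adam11, a disintegrin that lacks protease activity, stood at 9.07, 8.41, 7.37, 8.28 and 8.97 CPM with fishmeal and 2.43, 1.68, 4.56, 5.00 and 5.42 CPM with beef, which is 2.21-fold higher (DESeq2 adjusted p = 0.0175, 0.0972 without mouse 31, and edgeR 0.461). Salmon filet mice ranged from 2.52 to 17.4 CPM in Adam11, on both sides of the fishmeal values. Rdh11, a retinol dehydrogenase, was lower (-1.05), as were Fmn1 (-0.90), Sgsm1 (-0.86), Tirap (-0.40) and the barely detected Pitpnm3 (-1.33) and Strc (-2.42 by DESeq2, under the edgeR filter). Psme1, a proteasome activator subunit, was higher (0.47). None of them was called by edgeR. Without mouse 31, and again without mouse 35, DESeq2 no longer called Rdh11, Sgsm1, Tirap, Pitpnm3 or Psme1. Strc was lost without mouse 35, and Fmn1 was kept in each. Of the 35 DESeq2 calls, 26 were made without mouse 31 and 25 without mouse 35.

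The other 8 called by DESeq2 have another biotype in the count table, although GENCODE M21 has 1 of them, Gm10642, as protein coding. They were mostly faint or close to other genes. They include 1810008I18Rik and the Idi1 copy Gm13502 given above. Gm10925 (94.9 to 509.9 CPM with fishmeal, 71.8 to 102 CPM with beef) is identical to the mitochondrial mt-Atp6 over 678 bases, Gm37376 (0.398 to 2.45 CPM with fishmeal, 0.0607 to 0.398 CPM with beef) lies over Malat1 on the other strand, and Gm8186, identical to Snrpg over 231 bases, was higher (0.83). Lower were Gm3555, Gm10642 and Gm12406 (-0.93, -1.61 and -1.40), with values of 0.334 to 0.580, 0.0828 to 0.249 and 0.0498 to 0.245 CPM with fishmeal and 0.788 to 1.08, 0.344 to 1.08 and 0.325 to 0.548 CPM with beef. DESeq2 no longer called Gm12406 without mouse 31 or without mouse 35, Gm3555 without mouse 31, or Gm10642 without mouse 35.

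Of the markers of liver cell types in 11 lists, 0 were called by either tool. Kupffer cell markers, 7 of 7 tested, summed to 185 to 374 CPM with fishmeal and 196 to 378 CPM with beef, with a median log2 fold change of -0.015. The 7 endothelial markers summed to 212 to 301 CPM with fishmeal and 252 to 293 CPM with beef (-0.13), the 7 stellate cell markers to 172 to 225 CPM with fishmeal and 161 to 200.4 CPM with beef (0.14), and the 6 cholangiocyte markers to 48.6 to 62.6 CPM with fishmeal and 32.0 to 72.9 CPM with beef (-0.036). The 7 red blood cell markers summed to 84.7 to 271 CPM with fishmeal and 95.2 to 259.5 CPM with beef (-0.028, and 0.34 without mouse 35). The 8 T cell markers summed to 2.57 to 4.55 CPM with fishmeal and 2.71 to 5.11 CPM with beef. The 6 B cell markers summed to 3.64 to 6.81 CPM with fishmeal and 4.07 to 7.88 CPM with beef. The 8 neutrophil markers, of which 2 passed the filter, summed to 0.787 to 1.76 CPM with fishmeal and 0.329 to 1.116 CPM with beef. A mean of at least 1 CPM was reached by 0 T cell, 1 B cell and 0 neutrophil markers. The 5 adipocyte markers summed to 3.06 to 9.95 CPM with fishmeal and 7.40 to 11.7 CPM with beef. The 7 exocrine pancreas markers summed to 12.3 to 22.7 CPM with fishmeal and 11.4 to 26.2 CPM with beef. In all 10 libraries 1 adipocyte marker and 3 pancreas markers were at 0. Only Adrb3 of the adipocyte markers and Cela1 of the pancreas markers passed the filter or had a mean of at least 1 CPM. At an unadjusted p under 0.05 stood Pck1 of the hepatocyte markers (-0.42), S100a8 of the neutrophil markers (0.87) and Colec11 of the stellate cell markers (0.30). All 7 stellate cell markers had a positive log2 fold change, and all 7 endothelial and all 6 B cell markers a negative one. The stellate values ran from 0.013 to 0.30, the endothelial from -0.27 to -0.028 and the B cell from -0.45 to -0.073. The part of these differences in the results above was not tested.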

How the data were processed

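Liver RNA was sequenced by the authors from strand-specific, paired-end TruSeq mRNA libraries, 1 per mouse. Reads were trimmed with BBDuk, aligned with HISAT2 (version 1.2.1, as printed) and summarised per gene with featureCounts 1.4.6-p1. The submitters' notes name GRCh38, a human build, although the identifiers are of mouse, and 55141 of 55487 were found in GENCODE M21 (GRCm38). The strand and multi-mapping settings of the counting are not given in the sources used here. The deposited raw counts were tested here, and the TPM values the authors also deposited served levels per length and an alternative.

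The main test was the edgeR 4.0 quasi-likelihood F-test in R 4.3 with TMM scaling and filterByExpr (minimum count 10, prior count 2), on the 10 libraries alone, two-sided and with no covariate. A gene was called where p, adjusted by Benjamini-Hochberg across the whole table tested, was under 0.05. SEs were derived from the F statistic, intervals are 95%, and CPM values use TMM factors of the 20 libraries. Replicates are separate mice. DESeq2 1.42, limma 3.58 on log2(TPM + 1) or log2(TPM + 0.1), other scalings, filters and samples were alternatives, and the method was tested on simulated data. Similar genes were found with blastn 2.17 (at least 95% identity over at least 200 bases), and promoters came from RefSeq.

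Named were the genes called by edgeR, the cholesterol synthesis enzymes, genes the study measured or named, the extremes of each list with a mean of at least 1 CPM, and the 5 uncalled genes with the lowest adjusted p. Some of these genes are not reported here, and counts over lists include them. Members and lists were chosen with earlier results of these data known.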

Additional observations from a re-analysis of the deposited data

Results flagged for a closer look

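In 10 of 166 pairs of a named gene and a group, 1 mouse lay far from the other 4 of its group by Dixon's criterion, which chance alone meets in about 1 of 20 groups. Of these, 4 were beef mouse 35, the library with the high share of rRNA. It held 87.9 CPM of Tm7sf2 (43.1 to 52.0 in the other beef mice), a sterol enzyme. It also held 3.92 CPM of the heat shock gene Hspa1b (0.453 to 1.21), 81.4 CPM of the Kupffer cell marker Marco (5.40 to 18.1) and 41.9 CPM of the alpha globin Hba-a1 (2.74 to 11.2).

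Fishmeal mouse 12, the library with little Malat1, held 214 CPM of Mlxipl (455 to 482 in the other fishmeal mice). Fishmeal mouse 13 held 39.5 CPM of Acot1, which encodes an acyl-CoA thioesterase (9.83 to 17.4), and 41.9 CPM of Marco (5.80 to 15.3). Beef mouse 32 held 165 CPM of Cyp7a1 (88.1 to 107). For the clock gene Ciart, fishmeal mouse 20 stood at 4.81 CPM (0.258 to 1.21 in the others) and beef mouse 40 at 9.32 CPM (0.199 to 1.58).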

How the results depend on the processing

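Over the 22 enzymes the median log2 fold change, -0.94, lay between -1.04 and -0.82 when 1 mouse was left out, and was -0.80 without mice 31 and 35. The numbers of calls moved more. DESeq2 called 35 genes (7 higher, 28 lower, 11 of them enzymes), DESeq2 without mouse 31 called 30 (8 higher, 22 lower, 11 enzymes), and DESeq2 without mouse 35 called 25 (6 higher, 19 lower, 11 enzymes). edgeR with DESeq2 size factors, or with at least 10 counts in every library, called the same 4 genes as the main test. edgeR with no filter on low counts called 13 (12 lower, 10 enzymes). edgeR without mice 31 and 35 called 0 (0 higher, 0 lower, 0 enzymes), where 15 enzymes and 297 genes had an unadjusted p under 0.05. limma on log2(TPM + 0.1) called 2 genes, and 0 were higher with limma at either pseudocount or with edgeR on all 20 libraries, which called Dhcr7, Fdps and Sqle. Leaving out 1 mouse gave 1 to 4 genes, 0 to 1 higher, 1 to 4 lower and 1 to 4 enzymes, with 1 gene called without mouse 13, 16, 20, 31, 32 or 35. The cause of these differences was not tested. The fits without mice 31 and 35 together, and DESeq2 without either, were chosen after seeing the data. Of 88 named genes, 62 kept the sign of their log2 fold change in every setting and 72 were called in none. No paired analysis was possible because mouse numbers are not shared between the groups.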

Other observations

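Among uncalled genes with a mean of at least 5 CPM, the highest log2 fold changes rested on some of the fishmeal mice. Mup10, which encodes a major urinary protein made by the liver, stood at 3.17, 3.43, 1.51, 252 and 56.2 CPM in fishmeal mice 12, 13, 14, 16 and 20. The beef mice held 0.674 to 7.69 CPM, so that the log2 fold change of Mup10, 4.04 (edgeR adjusted p = 0.999), came from mice 16 and 20. Cyp3a16, a cytochrome P450, stood at 272, 229, 26.1, 198 and 327 CPM with fishmeal and at 28.5 to 100.5 CPM with beef. In Cyp3a16 the fishmeal mice lay above all beef mice except for mouse 14, which lay below them (log2 fold change 1.57, edgeR adjusted p = 0.999). At the other end, 4 of the 5 lowest uncalled genes with such a mean were described above for the sterol pathway or DESeq2, namely Sqle, Mvd, Idi1 and Igfbp1, and the last was Chrna4. These genes were chosen after their values were seen.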
